A study of Mus musculus with 45 samples.

Results

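The expression of 9 macrophage genes (Adgre1, Mrc1, Cd68, Lyve1, Timd4, Marco, Siglec1, Folr2 and Pparg) was followed across the tissues of mice bearing breast tumors of differing metastatic potential. The genes were a given list of known macrophage identity genes, drawn up with earlier results of these data known. All 9 had a row among the 55367 gene symbols of the count table. RNA sequencing of 3′ tags was performed on 45 libraries in 15 groups of 3. Scaffolds (porous polymer implants placed under the skin, which recruit immune cells), lungs and spleens were taken from healthy controls and from animals with a 67NR, 4T07 or 4T1 tumor, and primary tumors of the same 3 lines were sequenced too.

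All mice were female BALB/c with an intact immune system, aged 7 to 8 weeks when the scaffolds were implanted. The controls carried scaffolds but received no tumor cells. Tumor-bearing mice received 67NR, 4T07 or 4T1 cells in the fat pad of the 4th mammary gland, 2 weeks after the scaffolds, and all tissues were taken at day 14. The 3 lines derive from a single mammary tumor of a BALB/cfC3H mouse, so each stands for 1 cell line and not for a class of tumors. In this model 67NR cells form primary tumors only, 4T07 cells reach distant tissues without growing there, and 4T1 cells metastasize to the lung. The labels do not tie the tissues of one mouse together.

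Tissue macrophages share a core program of engulfment and lysosomal digestion, on which each organ imposes its own receptors. Red pulp and marginal zone macrophages of the spleen clear aged erythrocytes and blood-borne particles with scavenger receptors such as Marco and with Timd4, which binds phosphatidylserine on dying cells. Alveolar macrophages of the lung depend on the lipid-sensing nuclear receptor Pparg, while macrophages along vessels carry Lyve1, Folr2 and the mannose receptor Mrc1. Adgre1 encodes F4/80, Cd68 a lysosomal glycoprotein, and Siglec1 a sialic acid receptor of marginal zone and lymph node macrophages. Several of these genes are also used by other cells, since Lyve1 marks lymphatic endothelium and Pparg adipocytes.

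Levels are given as CPM, counts per 1000000 counts of the library, and log2 fold changes come from edgeR. A gene was called when its fold change exceeded 2 with an adjusted p below 0.1, or below 0.05 in tumors. Library totals ranged from 3491888 to 8175380 counts, at which 3 counts, taken as the lowest level a library can show, correspond to 0.367 to 0.859 CPM. Levels were not compared between genes.

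Some libraries stood apart from their tissue, and the results that rest on them are given with that fact. Tlx1, a transcription factor of spleen stroma, stood at 11.1 to 14.6 CPM in the 3 4T07 lungs, against 0.324 to 1.72 CPM in the other 9 lungs and 11.9 to 16.7 CPM in the 4T07 spleens. The summed level of 4 B cell genes was 271 to 350 CPM in the 4T07 lungs and 48.2 to 95.9 CPM in the other lungs, and that of 7 erythroid genes was 71766 to 92666 CPM against 17748 to 36529 CPM. All 4 lung epithelial markers were above the floor in the 4T07 lungs, but their sum was 5064 to 13053 CPM, below the 23568 to 31725 CPM of the other lungs. One 4T07 scaffold (library 22) and one 4T07 tumor (library 31) also showed Tlx1, at 4.65 and 4.42 CPM, where the remaining scaffolds reached 1.11 CPM and the remaining tumors 0.806 CPM. The markers of lung, spleen and the carcinoma epithelium were otherwise present in the tissues so labelled, with 67NR tumors as an exception. Carcinoma epithelial genes summed to only 12.4 to 17.3 CPM there, against 101 to 157 CPM in 4T07 and 783 to 914 CPM in 4T1 tumors. The same genes summed to 179 to 210 CPM in control lungs, above the 4T07 tumors, so they do not mark tumor tissue alone.

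In healthy mice each tissue had its own profile of the macrophage genes. Marco, the collagen-domain scavenger receptor that captures bacteria and particles, was at 473, 298 and 467 CPM in control spleens. It was at 11.3, 14.2 and 3.72 CPM in control lungs and at 4.40, 6.02 and 5.04 CPM in control scaffolds, so that every spleen lay far above both. The log2 fold change was -6.14 (SE 0.38, adjusted p = 5.49e-09, n = 3 per group) for scaffold against spleen and -5.44 (SE 0.36, adjusted p = 7.78e-09) for lung against spleen. Timd4 was also highest in spleens, with 115, 101 and 146 CPM in spleens, 3.84, 5.77 and 2.75 CPM in lungs and 5.03, 4.28 and 3.31 CPM in scaffolds. The lung and scaffold values of Timd4 overlapped, and those of Marco were close enough that neither gene was called between these tissues (log2 fold changes 0.24 and -0.69, SE 0.30 and 0.38), although without lung library 6 Marco was (-1.10, adjusted p = 0.00593). Siglec1 was less restricted, at 24.6 ± 4.38 CPM in spleens, 9.46 ± 1.24 CPM in scaffolds and 3.29 ± 0.689 CPM in lungs (SD, n = 3), and all 3 steps were called.

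Cd68, the lysosomal gene, marked the scaffold. It was at 817, 877 and 972 CPM in control scaffolds, 47.0, 65.3 and 59.3 CPM in spleens and 37.8, 33.2 and 24.9 CPM in lungs. The difference of scaffold over lung was 5.01 on the log2 scale (SE 0.22, adjusted p = 2.01e-10) and that of scaffold over spleen 4.14 (SE 0.21, adjusted p = 6.41e-10). Adgre1 was also highest in scaffolds, at 150 ± 27.4 CPM, followed by spleens at 93.3 ± 3.67 CPM and lungs at 27.8 ± 2.84 CPM, and the 3 tissues did not overlap. Mrc1 kept the order of Adgre1 within a narrower span, from 342 ± 20.7 CPM in scaffolds to 223 ± 33.3 CPM in spleens and 148 ± 10.7 CPM in lungs. Neither Adgre1 nor Mrc1 was called between scaffold and spleen. Pparg stood at 13.5 ± 4.60 CPM in scaffolds and did not differ detectably between lungs and spleens (5.59 ± 1.07 and 5.93 ± 1.51 CPM, log2 fold change -0.14, SE 0.30). Adipocyte markers, which go with Pparg in fat, summed to 319 to 552 CPM in control scaffolds, 98.3 to 261 CPM in lungs and 19.4 to 41.0 CPM in spleens, and their part in the Pparg level was not tested.

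Lyve1, the hyaluronan receptor, was the one gene that was highest in the lung. Control lungs held 130, 128 and 175 CPM and control scaffolds 32.1, 25.3 and 31.0 CPM, a log2 fold change of -2.07 for scaffold against lung (SE 0.18, adjusted p = 2.55e-07). In control spleens it was near the floor, with 2, 1 and 4 counts per library, and the summed counts put the lung 293 times above the spleen (95% exact counting interval 142 to 728). The 6 lymphatic endothelial markers summed to 328 to 349 CPM in control lungs, 433 to 454 CPM in scaffolds and 67.4 to 81.7 CPM in spleens, with Ccl21a at 0 in the lungs and scaffolds. Whether Lyve1 came from lymphatic vessels or macrophages was not tested.

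Folr2, the folate receptor of resident macrophages, was close to undetected everywhere. It had 17 counts over the 3 control scaffolds and 0 counts in all 3 control lungs, and over the 12 lungs and 12 spleens no library held more than 1 count. Across control tissues, 7 of 9 genes were called between scaffold and lung (32.6% of all genes tested were), 7 of 9 between scaffold and spleen (34.5% of all genes) and 5 of 9 between lung and spleen (39.9% of all genes).

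**Figure D1:**
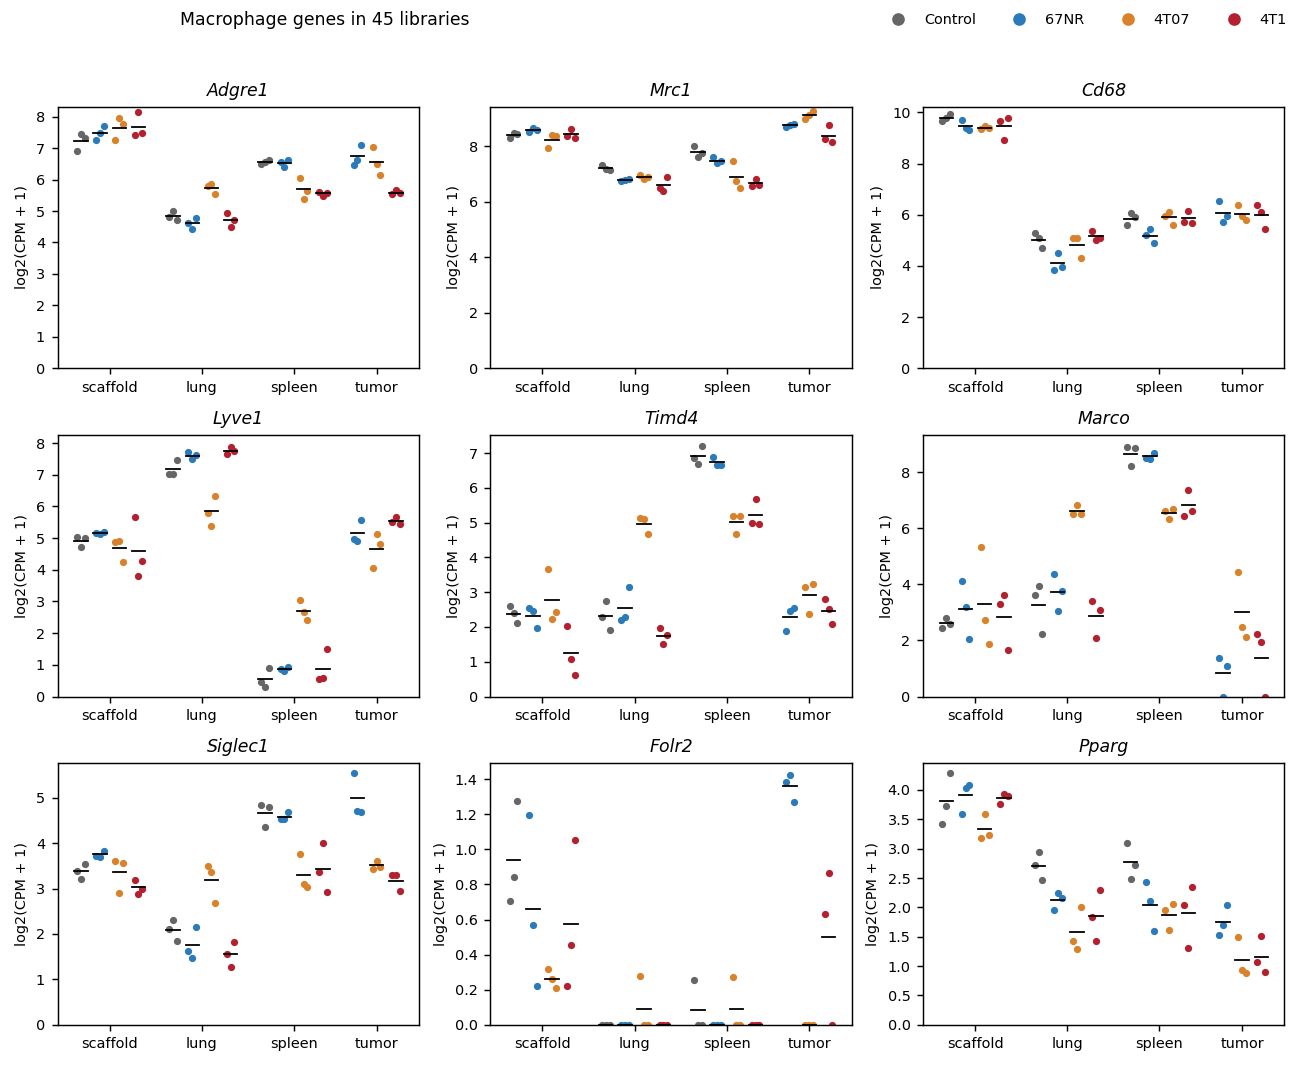
Level of each macrophage gene in the 45 libraries, as log2(CPM + 1) on the vertical axis of each panel, with tissues along the horizontal axis, points for libraries colored by tumor line and a bar for the mean of 3 libraries. Marco and Timd4 are highest in spleens, Cd68 in scaffolds and Lyve1 in lungs, and the 3 4T07 lungs lie apart from the other lungs in Marco, Timd4, Siglec1 and Adgre1.

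Marco and Timd4, the genes that fell together in the 4T07 and 4T1 spleens described next, are shown here by their promoters beside Cd68, which did not fall with them. The windows run from 250 bases before to 50 after the transcription start and come from RefSeq (GRCm38.p6), whose table held windows for 6 of the 9 genes. Capitals mark matches to GAGGAA, the core of binding sites for the macrophage factor PU.1, searched on both strands (TTCCTC on the other strand). Marco lies at chr1:120504975-120505274 on the minus strand, Timd4 at chr11:46810549-46810848 on the plus strand and Cd68 at chr11:69666121-69666420 on the minus strand.
Marco: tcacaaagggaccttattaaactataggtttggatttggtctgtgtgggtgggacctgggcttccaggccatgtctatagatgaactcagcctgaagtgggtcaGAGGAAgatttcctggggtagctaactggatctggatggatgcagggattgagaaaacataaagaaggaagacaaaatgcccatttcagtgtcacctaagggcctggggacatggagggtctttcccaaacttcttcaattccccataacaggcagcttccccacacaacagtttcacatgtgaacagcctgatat
Timd4: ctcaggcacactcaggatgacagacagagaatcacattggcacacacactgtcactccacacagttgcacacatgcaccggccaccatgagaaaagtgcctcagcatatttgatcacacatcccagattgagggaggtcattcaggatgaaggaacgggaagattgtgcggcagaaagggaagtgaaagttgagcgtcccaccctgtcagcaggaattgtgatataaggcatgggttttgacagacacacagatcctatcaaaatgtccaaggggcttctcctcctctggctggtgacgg
Cd68: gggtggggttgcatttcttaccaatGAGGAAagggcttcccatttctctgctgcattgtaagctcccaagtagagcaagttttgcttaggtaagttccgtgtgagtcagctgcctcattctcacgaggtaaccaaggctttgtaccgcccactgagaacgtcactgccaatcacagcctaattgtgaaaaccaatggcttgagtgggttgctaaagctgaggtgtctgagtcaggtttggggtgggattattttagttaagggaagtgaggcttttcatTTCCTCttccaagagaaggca

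The Marco window held 1 match, the Cd68 window 2 and the Timd4 window 0, which says only that these letters are not in this window. Of 32544 promoter windows of the same length, 28.1% held the motif. Mrc1, whose window held 3 matches, and the 3 Pparg windows, which held 1 among them, complete the members with a match.

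In the spleen, Marco, Timd4 and Siglec1 fell in mice with 4T07 and with 4T1 tumors. Marco stood at 473, 298 and 467 CPM in control spleens and at 362, 353 and 414 CPM in 67NR spleens, but at 97.4, 79.2 and 102 CPM in 4T07 spleens and at 86.3, 165 and 97.1 CPM in 4T1 spleens. All 6 spleens of the 4T07 and 4T1 groups thus lay below all 6 of the other groups. Marco fell by 1.98 on the log2 scale in 4T07 (SE 0.23, adjusted p = 1.48e-05) and by 1.58 in 4T1 (SE 0.23, adjusted p = 8.22e-05), each against control and with n = 3 per group.

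Timd4 fell with it. Its levels were 115, 101 and 146 CPM in control, 118, 100 and 99.6 CPM in 67NR, 35.4, 24.3 and 35.8 CPM in 4T07 and 30.9, 50.2 and 29.9 CPM in 4T1 spleens, again with no overlap between the first pair of groups and the second. Timd4 fell by 1.76 in 4T07 (SE 0.21, adjusted p = 2.22e-05) and by 1.45 in 4T1 (SE 0.21, adjusted p = 8.70e-05) against control. Siglec1 was at 27.6, 19.6 and 26.7 CPM in control and 22.0, 22.0 and 24.7 CPM in 67NR spleens, against 12.6, 7.59 and 7.16 CPM in 4T07 and 9.35, 14.9 and 6.63 CPM in 4T1 spleens. Siglec1 fell by 1.27 in 4T07 (SE 0.26, adjusted p = 0.00188) and by 1.01 in 4T1 (SE 0.26, adjusted p = 0.00765), and the latter sat at the fold threshold. Without library 7, 40 or 42 its 4T1 fold change was -0.91, -0.95 or -0.81, short of the threshold. Against 67NR it fell by 1.06 in 4T07 (adjusted p = 0.00921), which was -0.95 without library 29 and -0.93 without library 30.

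Adgre1, Mrc1 and Pparg were not called between any of the spleen groups. Adgre1 had means of 93.3 ± 3.67 and 91.3 ± 6.41 CPM in control and 67NR spleens, and of 51.8 ± 12.3 and 46.1 ± 2.50 CPM in 4T07 and 4T1 spleens. Its log2 fold changes of -0.69 and -0.76 (SE 0.17 in both, adjusted p = 0.00595 and 0.00271) passed the p but not the fold. Mrc1, with 223 ± 33.3 CPM in control, 125 ± 47.1 CPM in 4T07 and 101 ± 10.8 CPM in 4T1 spleens, had log2 fold changes of -0.68 and -0.89 (SE 0.20 and 0.21, adjusted p = 0.0219 and 0.00394). Pparg went from 5.93 ± 1.51 CPM in controls to 2.70 ± 0.562 CPM in 4T07 and 2.90 ± 1.34 CPM in 4T1 spleens, without a call (log2 fold changes -0.99 and -0.77, adjusted p = 0.0732 and 0.157). Without library 8, 9 or 30 the former passed the fold, at -1.15, -1.05 and -1.13, and without library 42 the latter did, at -1.15.

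Cd68 took another course from Marco and Timd4. Control spleens held 47.0, 65.3 and 59.3 CPM, 67NR spleens 36.2, 42.9 and 28.5 CPM, 4T07 spleens 61.6, 67.6 and 48.1 CPM and 4T1 spleens 52.3, 70.0 and 50.7 CPM. The 4T07 and 4T1 spleens overlapped the controls, and all 6 lay above the 3 67NR spleens. Cd68 rose by 1.03 on the log2 scale in 4T1 against 67NR (SE 0.20, adjusted p = 0.00128), with 0.99 (SE 0.20) in 4T07 against 67NR just short of the fold. Without library 18 or 41 the former was 0.88 or 0.90, and it was 0.69 with library totals alone and 0.93 with at least 10 counts in every library, so that the call was lost in each. Cd68 in 4T07 against 67NR was called without a count filter and with only the compared groups (1.02 in both). It was also called without library 16, 17, 28 or 30 (1.01, 1.14, 1.00 and 1.12), and with erythroid and neutrophil list genes removed (1.03). It was not called with DESeq2 or library totals.

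Lyve1 was called higher in 4T07 spleens than in each of the other spleen groups. It had 35, 31 and 15 counts there (7.21, 5.35 and 4.30 CPM), against 2, 1 and 4 counts in control, 4, 3 and 4 counts in 67NR and 2, 2 and 8 counts in 4T1 spleens. Summed counts gave a ratio to control of 11.6 (95% exact interval 5.36 to 29.6), to 67NR of 6.85 (3.63 to 14.3) and to 4T1 of 6.03 (3.27 to 12.1), intervals that cover counting error only. The fit gave adjusted p = 0.000102, 0.000454 and 0.0132 for the same pairs. Lung epithelial genes moved with it, at a sum of 34.7 to 74.9 CPM in 4T07 spleens against 3.92 to 24.0 CPM in the other spleens, and so did the lymphatic list, at 124 to 153 CPM against 47.8 to 82.1 CPM. Their part in the Lyve1 value was not tested.

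In all, 0 of 8 genes tested were called in 67NR against control spleen (2.26% of all genes were), where 2 genes had an unadjusted p below 0.05 by edgeR and DESeq2 also called 0. The counts were 4 of 8 in 4T07 against control (18.6% of all genes), 3 of 8 in 4T1 against control (19.9%), 4 of 8 in 4T07 against 67NR (14.7%), 3 of 8 in 4T1 against 67NR (20.7%) and 1 of 8 in 4T1 against 4T07 (2.33%). The median log2 fold change of the 8 genes was -0.84 in 4T07 and -0.83 in 4T1 against control, beside -0.09 and -0.10 over all genes tested. With library totals alone, without TMM, the median of all genes was -0.26 and -0.35, the falls of Marco, Timd4 and Siglec1 were called in both groups, Pparg was called as well in 4T07 and 4T1, and Adgre1 and Mrc1 in 4T1. The controls are shared by these comparisons.

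Several other transcripts moved with Marco, Timd4 and Siglec1 in the spleens. Of 9 red pulp and marginal zone genes, 5 fell and 0 rose in 4T07 and 3 fell and 0 rose in 4T1 against control (median log2 fold changes -1.19 and -0.95). Cd209b, a lectin of marginal zone macrophages, went from 72.5 to 14.5 CPM in 4T07 and 15.4 CPM in 4T1, and Nr1h3, the oxysterol receptor LXRα, from 58.8 to 15.8 and 22.7 CPM. Spic, the transcription factor of red pulp macrophages, fell by 1.19 in 4T07 and 1.11 in 4T1 (adjusted p = 0.000278 and 0.000442). Cd5l, another gene of red pulp macrophages, was lower in 4T07 but not in 4T1 spleens. It was at 170, 235 and 180 CPM in control and 99.9, 102 and 97.1 CPM in 4T07 spleens. The 67NR spleens, at 86.9, 144 and 133 CPM, also lay below the controls, although Marco, Timd4 and Siglec1 were not called there. All 4T1 spleens lay above the controls, at 244, 240 and 245 CPM. Of 16 core macrophage genes, 1 rose and 1 fell in 4T07, and 1 rose and 4 fell in 4T1. Csf1r, the receptor on which macrophages depend, had means of 523 ± 84.3, 348 ± 42.2, 263 ± 34.0 and 246 ± 54.5 CPM in control, 67NR, 4T07 and 4T1 spleens, with log2 fold changes of -0.81 and -0.84 against control in the last pair.

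Set against Csf1r within each library, Marco gave 0.604 to 1.03 counts per Csf1r count in control, 0.264 to 0.416 in 4T07 and 0.368 to 0.541 in 4T1 spleens, ranges that did not overlap the controls. Timd4 gave 0.205 to 0.251 in control, 0.0810 to 0.151 in 4T07 and 0.132 to 0.165 in 4T1 spleens. Siglec1 overlapped on this scale, at 0.0398 to 0.0603, 0.0253 to 0.0536 and 0.0335 to 0.0490, as did Adgre1 and Mrc1. Cd68 was higher per Csf1r count, from 0.0960 to 0.132 in control to 0.190 to 0.263 in 4T07 and 0.223 to 0.256 in 4T1 spleens, as a description with no test.

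The makeup of the spleen RNA shifted at the same time. The neutrophil list summed to 964 to 1715 CPM in control, 25626 to 31177 CPM in 4T07 and 12830 to 33573 CPM in 4T1 spleens, and the erythroid list to 84964 to 98683, 119524 to 156553 and 128538 to 139832 CPM. The B cell list was at 641 to 804 CPM in control, 265 to 354 CPM in 4T07 and 146 to 249 CPM in 4T1 spleens, and Tlx1 at 35.1 ± 3.42, 15.0 ± 2.66 and 17.2 ± 6.68 CPM. In bulk tissue, fewer cells of a type and less RNA per cell cannot be told apart. With all erythroid and neutrophil list genes taken out of the counts, a check added after seeing the data, the 15 calls of the spleen comparisons were kept. That check removed only the listed genes and left all other transcripts of those cells in place. The part of the changed makeup in the calls was therefore not tested.

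**Figure D2:**
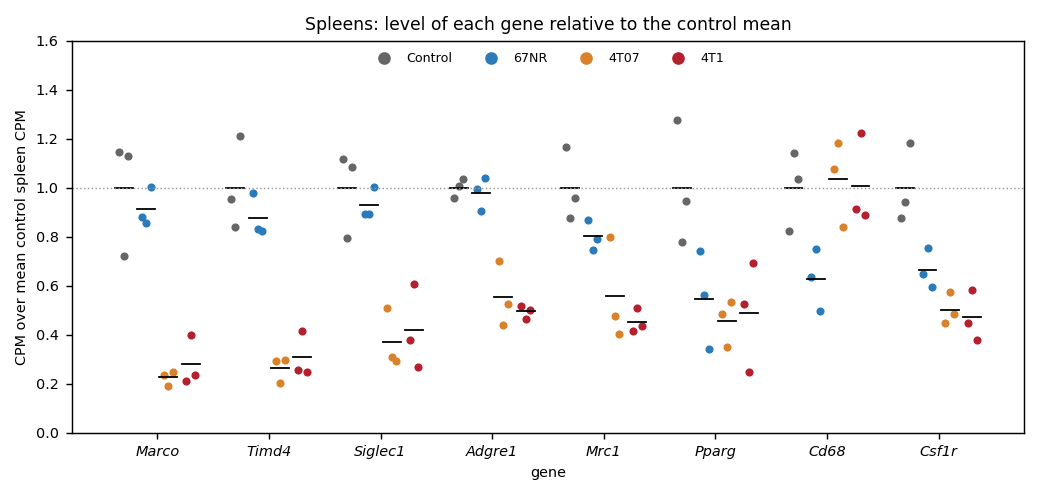
Level of 7 macrophage genes and of Csf1r in each of the 12 spleens, as CPM divided by the mean CPM of the 3 control spleens, with points for libraries colored by group and a bar for the mean of 3. In 4T07 and 4T1 spleens the points of Marco, Timd4 and Siglec1 lie below all control and 67NR points, while those of Cd68 overlap the controls.

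In the lungs, the largest differences belonged to the 4T07 group, the same 3 libraries that carried spleen markers. Marco was at 90.6, 113 and 89.2 CPM in 4T07 lungs, against 11.3, 14.2 and 3.72 CPM in control, 19.7, 7.31 and 12.7 CPM in 67NR and 9.50, 3.25 and 7.50 CPM in 4T1 lungs. Timd4 was at 33.9, 33.7 and 24.7 CPM in 4T07 lungs and at 1.84 to 7.81 CPM in the other 9 lungs. No other lung reached the 4T07 range for either gene. Against control, Marco rose by 3.39 (SE 0.35, adjusted p = 1.47e-07), Timd4 by 2.97 (SE 0.28, adjusted p = 4.51e-08) and Siglec1 by 1.41 (SE 0.32, adjusted p = 0.00107) on the log2 scale, and Adgre1 had a log2 fold change of 0.98 (SE 0.16, adjusted p = 3.51e-05). That value of Adgre1 lay at the fold threshold, and DESeq2 called it at 1.01.

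In level, the 4T07 lungs were close to the 4T07 spleens for these same genes. Mean Marco was 97.6 CPM in 4T07 lungs and 92.8 CPM in 4T07 spleens, Timd4 30.8 and 31.8 CPM, Siglec1 8.36 and 9.10 CPM, and Adgre1 52.5 and 51.8 CPM. Lyve1 and Cd68 were not alike, at 58.5 and 5.62 CPM and at 28.5 and 59.1 CPM. The spleen-associated genes Spic and Cd5l, the latter a secreted protein of red pulp macrophages, were at 29.6 and 112 CPM in 4T07 lungs and at 40.4 and 99.7 CPM in 4T07 spleens, against 2.71 and 2.26 CPM in control lungs. Of the 9 red pulp and marginal zone genes, 7 rose and 0 fell in 4T07 against control lungs (median log2 fold change 2.14), where 29% of all genes were called. The list summed to 906 to 1147 CPM in 4T07 lungs and 1229 to 1383 CPM in 4T07 spleens. It also summed to 945 to 1021 CPM in 4T07 tumors, so the sum does not mark spleen alone. Whether RNA from spleen contributed to the 4T07 lungs was not tested, and since all 3 lungs of the group share the feature, no 4T07 lung value without it can be given.

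**Figure D3:**
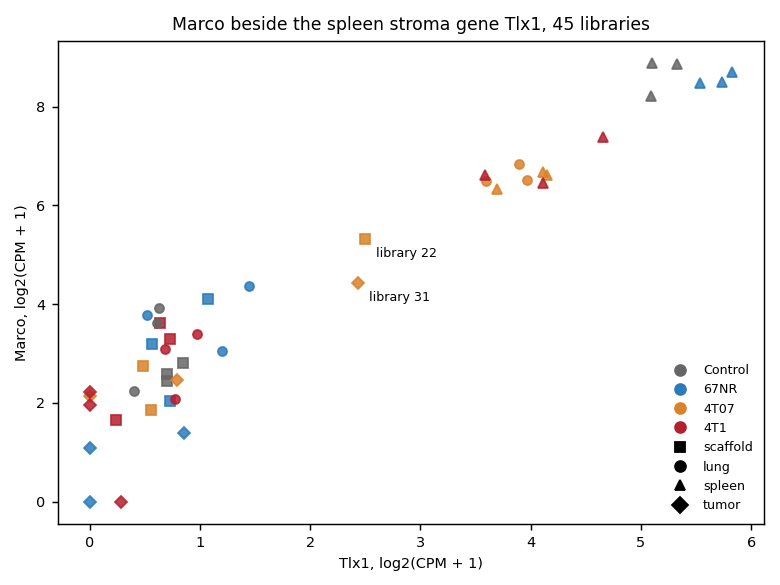
Marco against the spleen stroma gene Tlx1 in each of the 45 libraries, both as log2(CPM + 1), with color for the tumor line and shape for the tissue. The 3 4T07 lungs lie among the spleens, at 11.1 to 14.6 CPM of Tlx1, and the scaffold library 22 and tumor library 31 lie between the spleens and the other libraries.

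The difference of 4T07 from control libraries ran in opposite directions in lung and spleen for 5 genes, a comparison added after seeing the data. The contrast was picked on these same values, so its p-values are descriptive only. All 3 4T07 lungs carried spleen markers, whose part in these values was not tested. The difference of log2(4T07/control), lung minus spleen, was 5.25 for Marco (SE 0.74, adjusted p = 2.17e-06), 4.60 for Timd4 (SE 0.45, adjusted p = 2.70e-09), 2.55 for Siglec1 (SE 0.39, adjusted p = 8.74e-06) and 1.54 for Adgre1 (SE 0.26, adjusted p = 3.58e-05), and -4.98 for Lyve1 (SE 0.67, adjusted p = 8.54e-07). So 5 of 9 genes were called, beside 16.8% of all genes.

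Lyve1 and Pparg fell in the 4T07 lungs. Lyve1 was at 54.6, 41.1 and 79.8 CPM, against 130, 128 and 175 CPM in control lungs, and fell by 1.24 (SE 0.19, adjusted p = 1.44e-05). Pparg, with 1.69, 1.45 and 3.04 CPM against 5.58, 6.67 and 4.53 CPM, fell by 1.37 (SE 0.36, adjusted p = 0.00384). Lung epithelial genes were lower in the same libraries, as were the lymphatic list (152 to 215 against 328 to 349 CPM in controls) and the adipocyte list (20.6 to 61.0 against 98.3 to 261 CPM), whose part in these values was not tested. In the 4T07 lungs 7 of 11 alveolar macrophage genes fell and 1 rose. The alveolar genes Krt79 and Atp6v0d2 went from 17.0 to 1.63 CPM and from 54.9 to 5.88 CPM.

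Apart from 4T07, the lungs differed in fewer genes. Cd68 was at 13.2, 21.9 and 14.8 CPM in 67NR lungs, below the 37.8, 33.2 and 24.9 CPM of control and the 40.6, 30.9 and 33.1 CPM of 4T1 lungs, with no overlap. It fell by 1.04 in 67NR against control (SE 0.24, adjusted p = 0.0106) and rose by 1.18 in 4T1 against 67NR (SE 0.23, adjusted p = 0.00281). The fall lay at the fold threshold: without library 4, 13 or 15 it was -0.88, -0.92 or -0.95, and with library totals alone -0.94. Alveolar genes were lower in 67NR lungs too, with 4 of 11 called lower, including the ribonuclease Ear2 (19.1 against 56.2 CPM) and Atp6v0d2, a subunit of the proton pump (22.8 against 54.9 CPM).

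Pparg, the regulator of the alveolar macrophage, was lower in each tumor group than in control lungs, with means of 3.36 ± 0.442 (67NR) and 2.72 ± 1.11 CPM (4T1) against 5.59 ± 1.07 CPM. In 4T1 it fell by 1.02 (SE 0.33, adjusted p = 0.0622), a call that did not hold without library 4, 5, 37 or 38 (adjusted p = 0.153, 0.228, 0.162 and 0.298). In 67NR its log2 fold change was -0.83 (SE 0.32, adjusted p = 0.122). The adipocyte list summed to 98.3 to 261 CPM in control, 132 to 309 CPM in 67NR and 38.8 to 80.8 CPM in 4T1 lungs, and its part in the Pparg level was not tested. The neutrophil list summed to 214 to 285 CPM in control and 214 to 258 CPM in 67NR lungs. It summed to 23831 to 28776 CPM in 4T07 and 11485 to 27023 CPM in 4T1 lungs. The part of this changed makeup in the lung values of Pparg, Mrc1 and the other genes was not tested.

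Mrc1 was lower in lungs with 67NR and 4T1 tumors by less than the fold threshold, at 148 ± 10.7 CPM in control, 110 ± 3.00 CPM in 67NR and 96.7 ± 18.0 CPM in 4T1 lungs (log2 fold changes -0.53 and -0.60, SE 0.14, adjusted p = 0.0245 and 0.0112). Lyve1 was higher in 4T1 than in control lungs, at 217 ± 17.9 against 144 ± 26.5 CPM, also below the fold threshold (0.61, SE 0.18, adjusted p = 0.0416). Timd4 fell by 1.01 in 4T1 against 67NR lungs (SE 0.34, adjusted p = 0.0758), at 2.38 ± 0.531 against 5.12 ± 2.34 CPM. Library 15, at 7.81 CPM, carried much of that difference, since without it the log2 fold change was -0.57 (adjusted p = 0.477). The call was also lost without library 37, 38 or 39, at adjusted p = 0.115, 0.242 and 0.125.

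Of the 8 genes tested in lungs, 1 was called in 67NR against control (4.25% of all genes were), 5 in 4T07 against control (29%), 1 in 4T1 against control (4.61%), 5 in 4T07 against 67NR (29.7%), 2 in 4T1 against 67NR (5.03%) and 5 in 4T1 against 4T07 (23.5%). In the last comparison Lyve1 was higher in 4T1 by 1.84 (SE 0.19), while Marco, Timd4, Siglec1 and Adgre1 were lower, with log2 fold changes of -3.91, -3.74, -2.13 and -1.09. In a fit without the 4T07 lungs, added after seeing the data, all 4 calls of the remaining comparisons were kept.

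In scaffolds few macrophage genes were called between the groups. Mean Cd68 was 889 ± 77.8, 717 ± 99.8, 670 ± 27.9 and 726 ± 210 CPM in control, 67NR, 4T07 and 4T1 scaffolds. Mean Adgre1 lay between 150 ± 27.4 CPM in control and 210 ± 61.1 CPM in 4T1 scaffolds, and mean Mrc1 between 306 ± 50.9 CPM in 4T07 and 384 ± 18.3 CPM in 67NR scaffolds. These genes had log2 fold changes against control between -0.55 and 0.37, with SE of 0.16 to 0.22. Against control, 0 of 9 genes were called in 67NR (0% of all genes were) and 0 in 4T1 (0.0226%), with 0 and 2 genes at an unadjusted p below 0.05 by edgeR and 0 calls by DESeq2 in both.

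In 4T07 scaffolds Folr2 was the 1 gene of 9 called against control (7.44% of all genes), at 2, 1 and 1 counts against 3, 5 and 9 counts. The summed counts gave a ratio of control over 4T07 of 4.80 (95% exact interval 1.57 to 19.6), and the adjusted p was 0.0904. The libraries lie at or near the floor of 3 counts, DESeq2 gave no adjusted p, and the call was lost when any of the 6 libraries was left out (adjusted p = 0.118 to 0.257) or with library totals alone (0.107). Pparg in 4T07 scaffolds, at 9.16 ± 1.61 CPM against 13.5 ± 4.60 CPM, had a log2 fold change of -0.70 (SE 0.24, adjusted p = 0.0674). In 4T07 scaffolds 4 of 14 perivascular and interstitial macrophage genes fell and 0 rose, among them the complement receptor Vsig4, from 12.1 to 5.23 CPM.

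Marco and Timd4 in scaffolds rested on library 22, the 4T07 scaffold with spleen markers. Marco was at 39.0, 5.70 and 2.64 CPM in 4T07 scaffolds, and Timd4 at 11.6, 3.73 and 4.35 CPM, with library 22 first in both. Timd4 fell by 2.00 in 4T1 against 4T07 (SE 0.51, adjusted p = 0.0817), with 4T1 scaffolds at 3.10, 1.12 and 0.539 CPM (19, 6 and 3 counts). Against control the 4T1 scaffolds, which did not overlap the controls, gave -1.47 for Timd4 (SE 0.54, adjusted p = 0.298), not called except without a count filter (adjusted p = 0.0169). Without library 22 the log2 fold change of 4T1 against 4T07 was -1.30 (adjusted p = 0.262), and the call was also lost without library 23, 24, 35 or 36 (adjusted p = 0.127, 0.123, 0.153 and 0.217). In library 22 the erythroid list summed to 25187 CPM, the neutrophil list to 8691 CPM and the B cell list to 83.5 CPM, where the other 11 scaffolds reached 9416, 3073 and 21.6 CPM. Between tumor-bearing groups, 0 of 9 genes were called in 4T07 against 67NR (5.85% of all genes) and 0 in 4T1 against 67NR (0.0226%), each with 2 genes at an unadjusted p below 0.05 by edgeR and 0 calls by DESeq2, and 1 in 4T1 against 4T07 (1%). Siglec1 was at 7.17 ± 0.923 CPM in 4T1 and 12.5 ± 0.670 CPM in 67NR scaffolds, without overlap, and was not called (log2 fold change -0.83, SE 0.23, adjusted p = 0.265).

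The 4T1 effect on Adgre1 was called as different between spleen and scaffold, a call that was lost without 1 scaffold library. Adgre1 was lower in 4T1 than in control spleens and higher in 4T1 than in control scaffolds (210 ± 61.1 against 150 ± 27.4 CPM), neither of which was called. The difference of log2(4T1/control), spleen minus scaffold, was -1.13 (SE 0.25, adjusted p = 0.0028). Without library 35, the scaffold with the highest Adgre1, it was -0.91 (adjusted p = 0.014), short of the fold. Adgre1 was the 1 call among 9 genes in that contrast (11.1%), near the 10.7% of all genes called. Marco had -1.97 in the same contrast (SE 0.81, adjusted p = 0.117), which passed the threshold with library totals, without a filter, with at least 10 counts in every library and with only the compared groups (adjusted p = 0.0465, 1.01e-07, 0.0694 and 0.0254), and without library 36 or 41 (-2.39 and -2.28). Between spleen and lung 0 of 9 genes were called (11.5% of all genes) and between lung and scaffold 0 of 9 (0.986%), with 1 and 2 genes at an unadjusted p below 0.05 by edgeR and 0 calls by DESeq2. The falls of Marco and Timd4 in 4T1 spleens were thus not shown to differ from the 4T1 effects in lungs.

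In primary tumors Siglec1 was higher in 67NR than in the other lines, and Adgre1 was lower in 4T1. Adgre1 overlapped between 67NR and 4T07 tumors and was not called there. Siglec1 was at 46.0, 25.2 and 24.8 CPM in 67NR tumors, 9.83, 11.2 and 10.2 CPM in 4T07 tumors and 8.78, 8.81 and 6.69 CPM in 4T1 tumors, so that all 67NR tumors lay above the others. Against 67NR its log2 fold change was -1.85 in 4T07 (SE 0.25, adjusted p = 3.90e-05) and -2.17 in 4T1 (SE 0.26, adjusted p = 1.22e-05). Adgre1 was at 87.9, 97.6 and 137 CPM in 67NR, 130, 90.0 and 69.7 CPM in 4T07 and 45.3, 49.8 and 46.2 CPM in 4T1 tumors. Adgre1 fell by 1.39 in 4T1 against 67NR (SE 0.22, adjusted p = 0.000202), and in 4T1 against 4T07 its log2 fold change of -0.99 (SE 0.22, adjusted p = 0.00712) lay at the fold threshold.

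Marco and Folr2 also separated 4T07 from 67NR tumors, on few counts. Marco had 102, 25 and 12 counts in 4T07 tumors (20.5, 4.54 and 3.39 CPM) and 6, 0 and 4 counts in 67NR tumors, a ratio of summed counts of 10.7 (95% exact interval 5.66 to 22.9) with adjusted p = 0.0147. The highest value belonged to library 31, the tumor with spleen markers, where the erythroid list summed to 22286 CPM against at most 5629 CPM in the other tumors. Without it the log2 fold change was 1.81 rather than 3.10 (adjusted p = 0.146), and without library 20 it was 2.55 (adjusted p = 0.06). DESeq2 gave 3.12 (adjusted p = 0.0877), which missed the threshold of 0.05. Folr2 had 6, 6 and 5 counts in 67NR tumors and 0 counts in each 4T07 tumor, which puts 67NR at least 2.36-fold higher against a floor of 3 counts per library (adjusted p = 0.00236). In 4T1 tumors it had 3, 4 and 0 counts.

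The other genes were closer between tumors. Mrc1 had means of 434 ± 16.9, 563 ± 60.6 and 340 ± 79.4 CPM in 67NR, 4T07 and 4T1 tumors (log2 fold change of 4T1 against 4T07 -0.68, SE 0.18, adjusted p = 0.0178). Cd68 was at 68.2 ± 21.3, 65.7 ± 14.4 and 64.0 ± 19.7 CPM, with overlapping ranges and log2 fold changes against 67NR of -0.29 and -0.28 (SE 0.24). Lyve1 was lower in 4T07 than in 4T1 tumors, at 25.6 ± 9.23 against 45.8 ± 4.12 CPM (0.89, SE 0.26, adjusted p = 0.0301). Of 9 genes, 3 were called in 4T07 against 67NR (28.9% of all genes were), 2 in 4T1 against 67NR (20.7%) and 0 in 4T1 against 4T07 (8.61%), where 5 genes had an unadjusted p below 0.05 by edgeR and DESeq2 called 0.

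Other macrophage genes rose in 4T07 and 4T1 tumors where Siglec1 was lower. Of 12 monocyte and recruited macrophage genes, 7 rose in 4T07 and 5 in 4T1 against 67NR, and 0 fell (median log2 fold changes 1.49 and 0.89, beside 0.16 and 0.09 over all genes). Arg1, the arginase of tumor-associated macrophages, went from 4.26 CPM in 67NR tumors to 905 and 604 CPM in 4T07 and 4T1 tumors. Of 14 perivascular and interstitial genes, 6 fell and 3 rose in 4T07 and 4 fell and 2 rose in 4T1. Cbr2, a carbonyl reductase of resident macrophages, went from 269 to 79.2 and 68.4 CPM. Of 16 core genes, 2 rose and 5 fell in 4T07 and 2 rose and 1 fell in 4T1. Csf1r was at 260 to 386 CPM in 67NR, 98.9 to 154 CPM in 4T07 and 169 to 229 CPM in 4T1 tumors. Markers of other cells moved with these genes. The fibroblast list summed to 606 to 815 CPM in 67NR tumors, 3504 to 5402 CPM in 4T07 and 4187 to 7035 CPM in 4T1 tumors. The lymphatic list summed to 431 to 528, 92.3 to 137 and 79.0 to 90.2 CPM in the same order. Of its 6 genes, however, only 2 were above the floor in 67NR tumors, against 5 in 4T07 and 4 in 4T1 tumors. The higher 67NR sum was thus not shared by most genes of the list. The neutrophil list summed to 18.3 to 363, 991 to 5221 and 511 to 808 CPM. Their part in the differences between tumors was not tested.

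Set against the scaffold of the same line, tumors had less of 4 genes and more of none by call in the mean over lines. Averaged over the 3 lines, the log2 fold change was -3.53 for Cd68 (SE 0.16, adjusted p = 9.44e-15), -3.06 for Pparg (SE 0.19, adjusted p = 3.25e-12), -2.01 for Marco (SE 0.56, adjusted p = 0.0044) and -1.43 for Adgre1 (SE 0.14, adjusted p = 4.74e-09). The Marco value includes scaffold library 22 and tumor library 31 (39.0 and 20.5 CPM), which carried spleen markers. Mrc1, Lyve1, Timd4, Siglec1 and Folr2 were not called, with log2 fold changes between -0.77 and 0.43. The mean does not show differences between lines. Siglec1 was at 24.8 to 46.0 CPM in 67NR tumors and 12.0 to 13.3 CPM in 67NR scaffolds, while tumors and scaffolds overlapped in 4T07 and in 4T1. The share called, 4 of 9, stands beside 31.5% of all genes. Gpnmb, a lysosomal glycoprotein of lipid-laden macrophages, went the same way as Cd68, from 7769.7 CPM in scaffolds to 125 CPM in tumors.

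**Figure D4:**
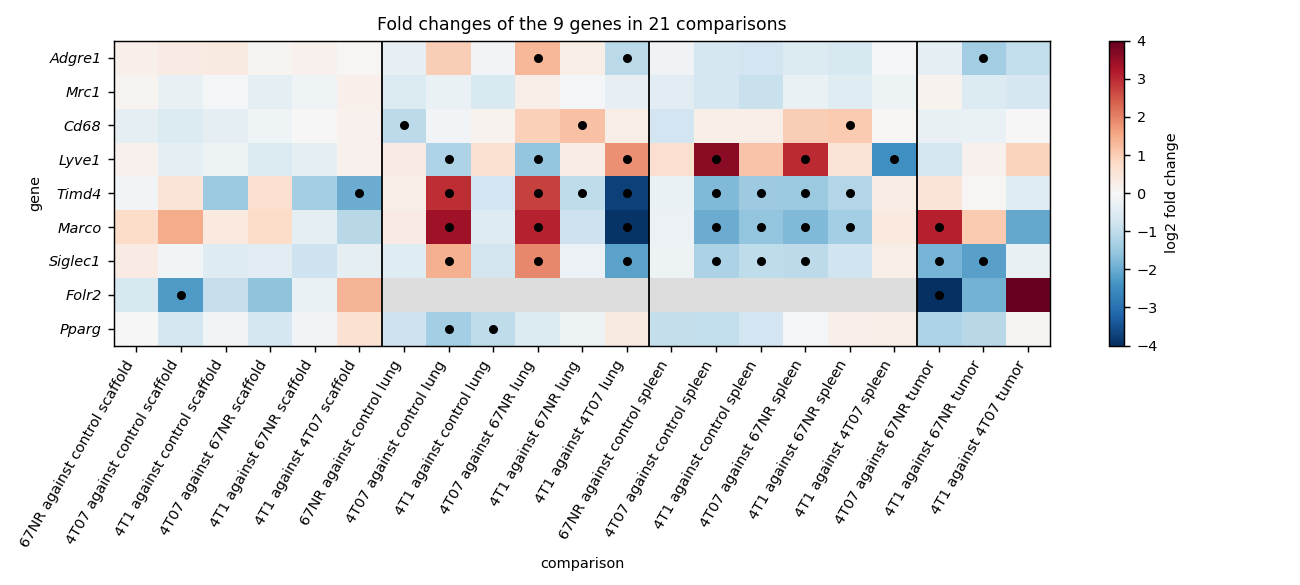
Log2 fold change of each of the 9 genes (rows) in the 21 comparisons within a tissue (columns), with red for a higher and blue for a lower level in the first group, colors capped at -4 and 4, a black dot where the gene was called and grey where Folr2 was not tested. Marco, Timd4 and Siglec1 are blue in 4T07 and 4T1 spleens and red in 4T07 lungs, and 0 genes are called in 67NR spleens and in 67NR and 4T1 scaffolds against control.

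The genes whose means over the 15 groups most resembled those of a member were found by Pearson's r on log2(CPM + 1), among 12047 genes with a mean of at least 5 CPM. These are descriptions over 15 group means that share libraries. Marco was most like Coch, Wdfy4 and Stab2 (r = 0.986, 0.986 and 0.985), the last of which encodes a scavenger receptor of splenic sinus endothelium. Timd4 was most like 2900052N01Rik, Asb2 and Madcam1 (r = 0.988, 0.983 and 0.983), of which Madcam1 encodes an adhesion molecule of the splenic marginal sinus. Cd68 was most like the receptor gene Ptafr, Tmem251 and the proton pump subunit Atp6v1f (r = 0.979, 0.979 and 0.976). Adgre1 was most like Ninj1, Hpgds and Snx5 (r = 0.9647, 0.9585 and 0.9496). Lyve1 was most like S100a16, the endothelin receptor Ednrb and Map6 (r = 0.965, 0.961 and 0.959). Pparg was most like the lysosomal fucosidase Fuca1, Rasgef1b and Ptchd1 (r = 0.9499, 0.9475 and 0.9443). For Siglec1 the nearest genes were Rpl7l1, Phf11b and Gm15536 (r = 0.941, 0.931 and 0.925), and for Folr2, with few counts, Zswim7, Bad and Mrpl43 (r = 0.919, 0.917 and 0.915).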

How the data were processed

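RNA from 45 tissue samples was made into 3′ libraries with unique molecular identifiers and sequenced by the authors. The deposited table holds whole-number counts per gene symbol, not normalized. The submitters' processing notes name Trim Galore 0.5.0, STAR 2.6.0 and featureCounts; genome build, annotation and collapsing of identifiers are not given in the sources used here. Of 55487 rows, 120 repeated a symbol and were added up. Groups came from the sample titles, whose library numbers name the replicates; the study gives 3 mice per condition.

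Each tissue was fitted with all its groups in edgeR 4.0.16 (R 4.3.3; TMM, quasi-likelihood F test, Benjamini-Hochberg over all genes of the fit with more than 10 counts in total). Control tissues, tumors against scaffolds, and differences between tissues had fits of their own. DESeq2 1.42.0, other scalings and filters, 2-group fits and each library left out were the alternatives. The scripts were tested on simulated data.

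All 9 members were named; of other lists, at most 3 called genes with a mean of at least 5 CPM. Members and lists were chosen with earlier results of these data known. The genes nearest to Mrc1 are not reported here.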

Additional observations from a re-analysis of the deposited data

Results flagged for a closer look

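The effect of 4T07 tumors, as log2(4T07/control), differed between lung and spleen for 5 genes by a test of the difference itself, lung minus spleen. The values were 5.25 for Marco, 4.60 for Timd4, 2.55 for Siglec1, 1.54 for Adgre1 and -4.98 for Lyve1 (edgeR, 3 libraries per group, a comparison chosen after seeing the data). Marco, Timd4 and Siglec1 were lower in the 4T07 spleens and higher in the 4T07 lungs than in controls. The 4T07 lungs also carried the spleen gene Tlx1, at 11.1 to 14.6 CPM, whose part in these values was not tested. The effect of 4T1 tumors on Adgre1 was called as different between spleen and scaffold, by -1.13 on the log2 scale. It was 1 call of 9 genes where 10.7% of all genes were called, and it was lost without library 35 (-0.91).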

How the results depend on the processing

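Of the calls that could be refitted, DESeq2 kept 68 of 70, DESeq2 size factors in edgeR 70 of 70, library totals 67 of 70, no count filter 70 of 70, fits of only the compared groups 64 of 66, at least 10 counts in every library 51 of 52, and leaving out each library 470 of 502, and 0 calls changed sign. The number of macrophage genes called moved by more than 1.5 times as follows. For 4T07 against control scaffold it was 0 by DESeq2, by library totals and with at least 10 counts in every library, and 2 without a filter. For 4T1 against 4T07 scaffold it was 2 without a filter, and 0 with at least 10 counts or with only the compared groups. Without a filter it was 1 for 4T1 against control and against 67NR scaffold, 1 for 4T1 against 4T07 tumor, 1 for the 4T1 difference between spleen and lung and 2 for that between spleen and scaffold. With library totals it was 0 for 67NR against control lung, 6 for 4T1 against control spleen, 1 for 4T1 against 4T07 tumor and 3 for the 4T1 difference between spleen and scaffold. With at least 10 counts in every library, where low genes are not tested, it was 0 for 4T1 against control lung, 0 for 4T1 against 4T07 spleen, 1 for 4T07 against 67NR and for 4T1 against 4T07 tumor, 2 for tumor against scaffold, 2 for the 4T1 difference between spleen and scaffold and 3 for the 4T07 difference between lung and spleen. With only the compared groups it was 1 for 4T1 against 67NR lung and 2 for the 4T1 difference between spleen and scaffold. The cause of the other changes was not tested.

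With each library left out in turn, the number called ranged from 0 to 1 for 4T07 against control scaffold, 4T1 against 4T07 scaffold, 67NR against control lung and the 4T1 difference between lung and scaffold. It ranged from 0 to 2 for 4T1 against control lung, 4T1 against 4T07 tumor and the 4T1 difference between spleen and scaffold, and from 1 to 2 for 4T1 against 67NR lung. No paired analysis was possible because the library numbers are not shared between groups and the labels do not link the tissues of a mouse. Depth limits Folr2 everywhere, Lyve1 in spleens and Marco in tumors.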

Other observations

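Genes of the alveolar macrophage list were higher in 4T07 spleens than in control spleens, where 6 of 11 rose and 1 fell (18.6% of all genes were called). The list summed to 132 to 151 CPM in control and 251 to 298 CPM in 4T07 spleens. It was as high in 4T1 spleens, at 246 to 309 CPM. The list summed to 551 to 642 CPM in control lungs and 1776 to 2522 CPM in control scaffolds, so it does not mark alveolar macrophages alone. Csf2ra and Csf2rb, receptor subunits for the growth factor GM-CSF, went from 48.4 to 113 CPM and from 23.2 to 58.5 CPM. Ear1, a ribonuclease that eosinophils also express, rose to 55.4 CPM, by 4.53 on the log2 scale (adjusted p = 4.01e-06). The 4 eosinophil genes summed to 1361 to 1898 CPM in 4T07 spleens, against 140 to 188 CPM in control spleens. The neutrophil list summed to 25626 to 31177 CPM against 964 to 1715 CPM in the same spleens, and the lung epithelial list to 34.7 to 74.9 CPM against 3.92 to 8.62 CPM. The part of any of these lists in these values was not tested.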
